A study of Mus musculus with 20 samples.

Results

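The 10 genes described here encode core proteins of the basement membrane: the laminin chains Lama1, Lama5, Lamb1 and Lamc1, the collagen IV chains Col4a1 and Col4a2, the nidogens Nid1 and Nid2, the heparan sulfate proteoglycan perlecan (Hspg2) and the collagen-binding glycoprotein Sparc. They were taken by symbol from a table of 16014 named genes in mouse blastocysts, all 10 were present, and all 10 were among the 15068 genes tested. The set was put together with their levels in these same blastocysts already known, so their differences from vehicle are a description, and no p is given for them. In embryos injected with a let-7f mimic, 9 of the 10 transcripts had a lower group mean than in vehicle embryos, and Lama5 had a higher one.

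Zygotes were wild type, of the strain labelled F1 C57BL/6Jx129S1/SvlmJ, and were microinjected and then cultured to blastocysts in KSOM medium at 37 C under 5% CO2 and 5% O2. Vehicle zygotes (n = 7 libraries) received nuclease-free water. Str let-7f zygotes (n = 8) received let-7f-5p mimic in an amount set by its stress-raised level in sperm, and 2x Str let-7f zygotes (n = 5) received it at the doubled concentration. Each library came from a pool of 10 blastocysts, so values are averages over embryos and over the cell types within them. No group received an unrelated mimic, so injection of any small RNA and injection of let-7f cannot be told apart here.

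A basement membrane is a thin sheet of matrix under epithelia. Laminins are trimers of 1 α, 1 β and 1 γ chain that polymerise at the cell surface, where integrins and dystroglycan bind them. Collagen IV forms a second, covalently crosslinked network, and nidogens and perlecan connect the networks. In the blastocyst, primitive endoderm cells lay down such a sheet between themselves and the epiblast, and their parietal descendants later build the thick Reichert's membrane on the trophectoderm. A microRNA such as let-7f lowers transcripts mainly by pairing of its seed, bases 2 to 8, with matching sites in 3′ untranslated regions (UTRs).

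The mimic is shown first, because the sites searched for in the 10 transcripts are complements of its seed. The mature sequence is from RefSeq (GRCm38.p6, chromosome 13, minus strand), is 22 bases long, matches the sequence in the labels, and has its seed in capitals.
let-7f-5p: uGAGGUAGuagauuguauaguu
In the longest 3′ UTR of each gene in GENCODE M21 (GRCm38), read on the sense strand only, 3 motifs were searched: the 8-base site CTACCTCA and the 7-base sites CTACCTC and TACCTCA, each of the latter counted only where it was not part of an 8-base site. The 8-base site was in 0 of the 10 transcripts and in 3.78% of the 13160 tested genes with an annotated 3′ UTR. At least 1 of the 3 motifs was in 4 of the 10, and in 17.7% of all these genes. These 5 windows of 30 bases hold every match among the 10 genes, with the matching bases in capitals.
Nid1 first site: tcttggggaacagagccccCTACCTCcttt
Nid1 second site: cagcccccaaccctatctcCTACCTCcacc
Nid2: gtatattttgtgaaatgtaTACCTCAatct
Col4a1: cctagaattatatcctgtgTACCTCActgt
Col4a2: gtgcttactcttaacttatTACCTCAgatg
Both Nid1 sites (chromosome 13, plus strand) lay in a 3′ UTR of 2202 bases, at bases 1780 and 1830. The Nid2 site (chromosome 14, plus strand) began at base 163 of 591. On chromosome 8, the site of Col4a1 (minus strand) began at base 113 of 1378 and that of Col4a2 (plus strand) at base 235 of 971. No match was found for Lama1, Lama5, Lamb1, Lamc1, Hspg2 or Sparc, whose UTRs ran from 151 bases in Lamb1 to 2551 bases in Lamc1. A match is a sequence feature and was not tested as a binding site.

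Depth ran from 3.30 to 46.6 M reads in vehicle libraries (median 10.5), from 1.54 to 58.8 M in Str let-7f (median 12.4) and from 1.94 to 27.2 M in 2x Str let-7f (median 5.04). Under 2 M reads lay Str let-7f replicate 9 and, of the doubled dose, replicate 4, and no other library. The fewest reads behind any value of the 10 genes were 53, for Nid2 in 2x Str let-7f replicate 4, and the other genes had at least 156. Markers of all 3 blastocyst lineages were present in every library: the summed level of 9 trophectoderm markers was at least 7112 reads per 1 M reads, that of 12 primitive endoderm markers at least 3156 and that of 8 epiblast markers at least 579. In no library did the measured markers of granulosa cells sum to more than 5.68 reads per 1 M reads, those of stroma to more than 6.66 or those of blood to more than 9.94. These sums rest on only 2 of 8 listed granulosa markers, 2 of 7 of stroma and 3 of 5 of blood, the others being absent from the table.

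In vehicle blastocysts the 10 transcripts together made up 0.762% ± 0.109 of all normalized counts (SD, n = 7). This share was 0.457% ± 0.104 in Str let-7f (n = 8) and, at the doubled dose, 0.431% ± 0.154 (n = 5), and 7 of 8 and 4 of 5 pools lay below every vehicle pool. The median log2 fold change over the 10 genes was -0.94 for Str let-7f and -1.05 for 2x Str let-7f, against -0.02 and -0.01 over all genes tested. In each comparison with vehicle, 7 of the 10 were among the genes that the fit over all genes put below a limma adjusted p of 0.05, all of them lower (Lama1, Lamb1, Lamc1, Nid2, Col4a1, Hspg2 and Sparc). Over all genes, 2.63% were called for Str let-7f (0.796% lower and 1.84% higher), and 1.89% for 2x Str let-7f (0.664% lower and 1.23% higher). Nothing is read from these counts, since the genes were picked by the same differences, and both comparisons share the vehicle pools. Without the 5 libraries under 5 M reads the count was 6 for Str let-7f and 3 for 2x Str let-7f, with 3 pools left in the latter group. Over all genes, 201 and 68 were then called. In pools of whole embryos, fewer cells of a type and less RNA per cell cannot be told apart.

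**Figure D1:**
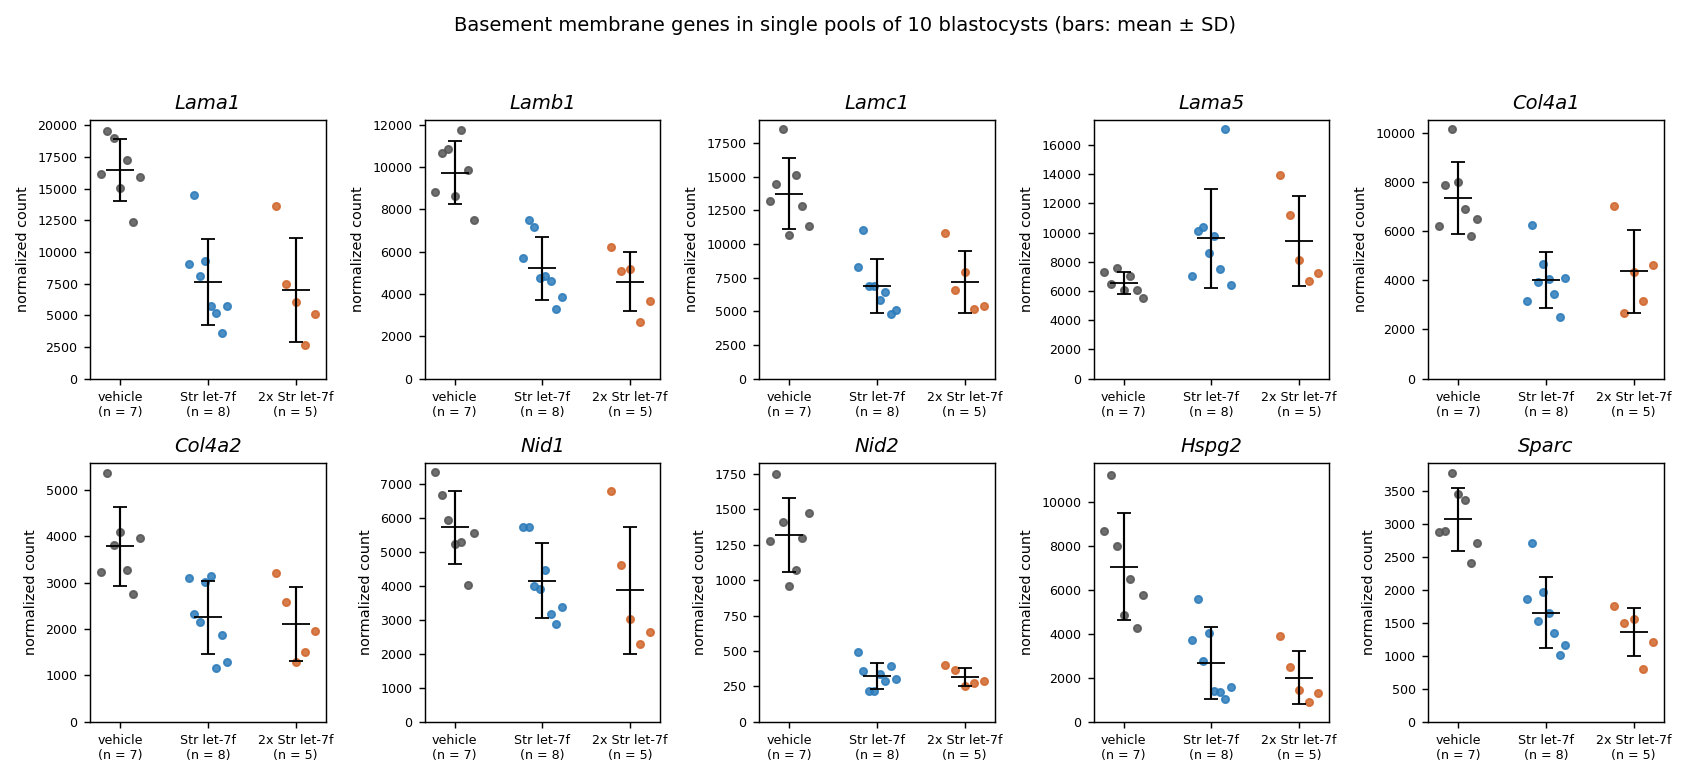
Normalized counts (vertical axes, starting at 0) of each of the 10 basement membrane genes in vehicle (n = 7), Str let-7f (n = 8) and 2x Str let-7f (n = 5) pools; each point is 1 pool of 10 blastocysts and bars are mean ± SD. The Nid2 points of both mimic groups all lie below the vehicle points, and Lama5 shows its highest points in the mimic groups.

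Among the laminin genes, Lama1 encodes the α1 chain, the main α chain of the early embryo. Its normalized count ran from 12326 to 19565 in vehicle pools (median 16121) and from 3591 to 14473 in Str let-7f pools (median 6903). In the 2x Str let-7f pools it was 13585, 7472, 6011, 2675 and 5089. In each mimic group 1 pool reached into the vehicle range, replicate 2 of Str let-7f and replicate 1 of 2x Str let-7f, and all other mimic pools lay below it. The log2 fold change against vehicle was -1.21 ± 0.27 (SE) for Str let-7f and -1.42 ± 0.30 for 2x Str let-7f.

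Lama5 encodes the α5 chain, an alternative partner of the same β and γ chains. Its normalized count ran from 5505 to 7554 in vehicle pools (median 6479) and from 6408 to 17125 in Str let-7f pools (median 9169). The 2x Str let-7f pools had 13935, 11219.6, 8102, 6714 and 7211. The groups overlapped, with 5 of 8 and 3 of 5 mimic pools above every vehicle pool and 0 below. The log2 fold change was 0.49 ± 0.17 (SE) and 0.47 ± 0.20. Str let-7f replicate 9, the shallowest library, held the highest Lama5 value; without it the log2 fold change was 0.36.

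Because Lama1 and Lama5 lay on opposite sides of their vehicle levels, the make-up of the α chain transcripts differed between groups. Per kb of the longest annotated transcript, Lama5 made up 21.7% to 29.3% of the sum of both in vehicle pools (mean 25.2% ± 2.64, SD, n = 7). It made up 36.9% to 80.0% in Str let-7f pools (mean 51.7% ± 13.7, n = 8), or 47.6% without replicate 9. In the 2x Str let-7f pools it was 46.2%, 55.7%, 53.0%, 67.7% and 54.2%. All 13 mimic pools therefore lay above all 7 vehicle pools. The sum of both α chain transcripts per kb was 2305 ± 297 in vehicle, 1645 ± 401 in Str let-7f and, at the doubled dose, 1559.9 ± 691.

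Lamb1 and Lamc1 encode the β1 and γ1 chains, which join either α chain. Lamb1 ran from 7480.2 to 11766 in vehicle pools (median 9861) and from 3281 to 7507 in Str let-7f pools (median 4804), and 2x Str let-7f pools had 6234, 5073, 5178, 2680.4 and 3682. Lamc1 ran from 10663 to 18515 in vehicle pools (median 13176) and from 4788 to 11038 in Str let-7f pools (median 6629), and 2x Str let-7f pools had 10780.5, 6602, 7929, 5128 and 5384. For Lamb1 1 of 8 Str let-7f pools and 0 of 5 2x Str let-7f pools reached the vehicle range, and for Lamc1 1 pool of each group did. Log2 fold changes against vehicle were -0.94 ± 0.18 and -1.14 ± 0.20 (SE) for Lamb1, and -1.02 ± 0.17 and -0.97 ± 0.19 for Lamc1. The log2 ratio of Lamc1 to Lamb1 counts, 0.49 ± 0.17 (SD) in vehicle, was 0.41 ± 0.21 in Str let-7f and, at the doubled dose, 0.65 ± 0.22, and the ranges of all 3 groups overlapped.

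Col4a1 and Col4a2 are neighbouring genes that encode the α1 and α2 chains, which assemble together into the widespread form of collagen IV. Col4a1 ran from 5823 to 10142 normalized counts in vehicle pools (median 6907) and from 2489 to 6249 in Str let-7f pools (median 3994), and was 7036, 2659, 4357, 3161 and 4618 in 2x Str let-7f pools. Col4a2 ran from 2743 to 5362 in vehicle pools (median 3803) and from 1160.2 to 3136 in Str let-7f pools (median 2239.98), and was 3196, 2587, 1280.3, 1503 and 1963 in 2x Str let-7f pools. Col4a1 lay below every vehicle pool in 7 of 8 and 4 of 5 mimic pools, and Col4a2 in 5 of 8 and 4 of 5. Log2 fold changes were -0.90 ± 0.19 and -0.81 ± 0.21 (SE) for Col4a1, and -0.80 ± 0.22 and -0.90 ± 0.25 for Col4a2. Summed per kb, the pair stood at 1698 ± 305 in vehicle (SD, n = 7), 955 ± 227 in Str let-7f and, at the doubled dose, 987 ± 337. The log2 ratio of Col4a2 to Col4a1 counts had a wide spread in the mimic groups, at -0.87 ± 0.61 and -1.05 ± 0.63 (SD), against -0.97 ± 0.28 in vehicle.

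Nidogens bind the laminin γ1 chain and collagen IV. Nid2 ran from 961 to 1749 normalized counts in vehicle pools (median 1299.6) and from 216 to 493.3 in Str let-7f pools (median 318). The 2x Str let-7f pools had 400.02, 368, 251, 274 and 291. No mimic pool came near the vehicle range, and the group means were 0.246 and 0.24 times the vehicle mean. The log2 fold change was -2.05 ± 0.18 (SE) for Str let-7f and -2.05 ± 0.20 for 2x Str let-7f.

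Nid1 overlapped far more. It ran from 4036 to 7339 in vehicle pools (median 5566) and from 2875 to 5741 in Str let-7f pools (median 3948), and was 6802, 4620.1, 3018, 2283 and 2634 in 2x Str let-7f pools. Only 5 of 8 and 3 of 5 mimic pools lay below every vehicle pool, with log2 fold changes of -0.48 ± 0.20 and -0.66 ± 0.22 (SE). Per kb, Nid2 made up 17.8% to 28.7% of both nidogens in vehicle pools (mean 22.5% ± 3.88, SD), 6.34% to 14.6% in Str let-7f pools (mean 9.13% ± 2.69) and 6.84%, 9.05%, 9.40%, 13.0% and 12.1% in 2x Str let-7f pools. This share lay below every vehicle pool in all 13 mimic pools. Nid1 has 2 of the 7-base motifs printed above and Nid2 has 1.

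**Figure D2:**
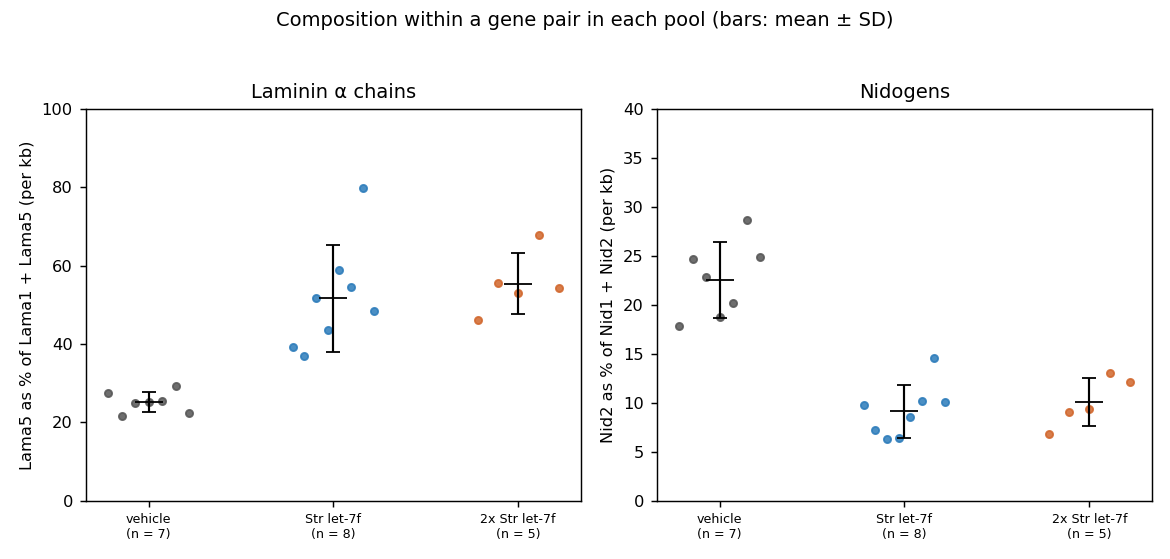
Share of Lama5 among Lama1 and Lama5 transcripts (left, percent) and of Nid2 among nidogen transcripts (right, percent), computed from normalized counts per kb of the longest annotated transcript; each point is 1 pool and bars are mean ± SD for vehicle (n = 7), Str let-7f (n = 8) and 2x Str let-7f (n = 5). Vehicle pools lie between 21.7% and 29.3% on the left and between 17.8% and 28.7% on the right, and no mimic pool enters either range.

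Hspg2 encodes perlecan, which carries heparan sulfate chains. It ran from 4273 to 11226 normalized counts in vehicle pools (median 6482) and from 1019.7 to 5564 in Str let-7f pools (median 2163), and was 3904, 2489, 1447, 909 and 1301 in 2x Str let-7f pools. Except for 1 Str let-7f pool, all mimic pools lay below the vehicle range. With log2 fold changes of -1.56 ± 0.34 and -1.93 ± 0.39 (SE), Hspg2 had the widest standard errors among the 10 genes, and its SD was 61.0% and 60.2% of the mean in the mimic groups.

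Sparc encodes an extracellular glycoprotein that binds collagen IV and is abundant in parietal endoderm. It ran from 2408 to 3771 normalized counts in vehicle pools (median 2889) and from 1013 to 2703 in Str let-7f pools (median 1585), and was 1756, 1493, 1555, 806 and 1203 in 2x Str let-7f pools. All 2x Str let-7f pools and 7 of 8 Str let-7f pools lay below the vehicle range. Log2 fold changes were -0.94 ± 0.18 and -1.20 ± 0.21 (SE).

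Both concentrations were also compared with each other by a test, although earlier results of this comparison were known as well when the genes were chosen. None of the 10 genes was called between 2x Str let-7f and Str let-7f by limma, edgeR or DESeq2, and none had an unadjusted limma p under 0.05. Over all genes, limma called 0, equal to 0%, and edgeR and DESeq2 on recovered reads called 1 and 10, while 608 had an unadjusted limma p under 0.05. The limma adjusted p was 0.99974 for each of the 10 genes. Their median log2 difference was -0.14 (0.003 over all genes), and 8 of 10 were below 0, beside 7472 of 15068 over all genes. The difference ran from -0.37 for Hspg2 (95% interval -1.15 to 0.41) to 0.09 for Col4a1 (-0.33 to 0.51). For Nid2 it was -0.01 (-0.41 to 0.40), for Lama1 -0.21 (-0.82 to 0.40), for Lama5 -0.02 (-0.41 to 0.38) and for Sparc -0.27 (-0.68 to 0.15). A difference of 1 on the log2 scale in either direction lay outside the interval of 9 genes, the exception being Hspg2.

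Ratios between partner genes were compared between both concentrations as well, by exact permutation tests over 1287 splits, two-sided, with 4 ratios tested. The log2 ratio of Lama1 to Lama5 was -0.38 ± 0.87 (SD, n = 8) in Str let-7f and -0.58 ± 0.47 (n = 5) in 2x Str let-7f (exact p = 0.656, adjusted over the 4 ratios 0.656). For Nid2 to Nid1 it was -3.69 ± 0.45 and -3.51 ± 0.41 (exact p = 0.496, adjusted 0.656), and for Col4a2 to Col4a1 exact p was 0.617 (adjusted 0.656). Lamc1 to Lamb1 had the smallest p (exact p = 0.0668, adjusted 0.267). No ratio passed. In vehicle, the log2 ratio was 1.32 ± 0.20 for Lama1 to Lama5 and -2.12 ± 0.32 for Nid2 to Nid1.

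**Figure D3:**
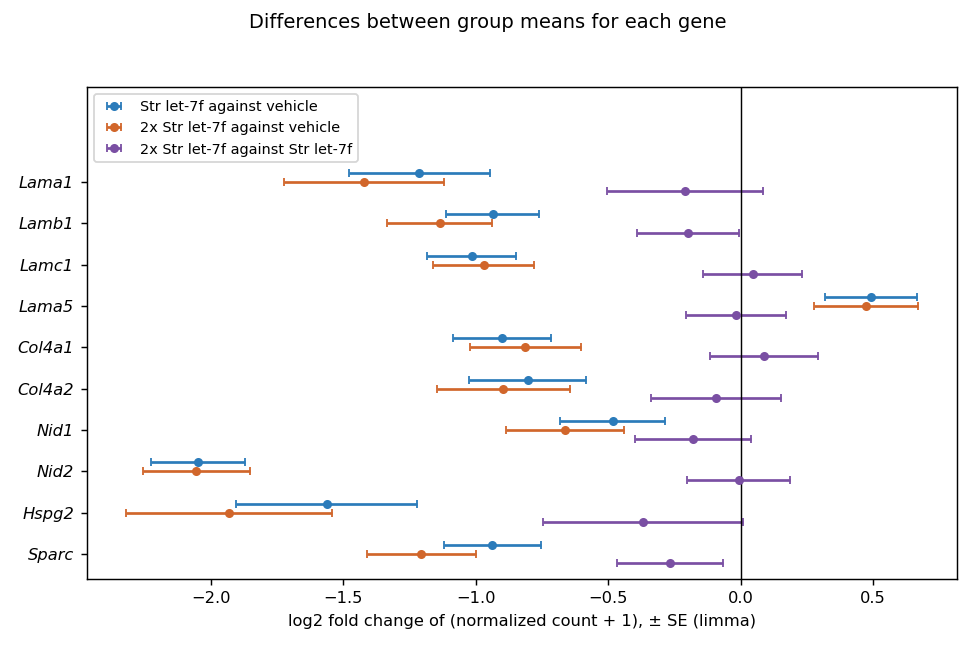
Log2 fold change of (normalized count + 1), horizontal axis, for each of the 10 genes in 3 comparisons; points are limma estimates and bars are SE. Against vehicle, 9 genes lie left of 0 and Lama5 lies right of it in both mimic groups, and the differences between both concentrations lie from -0.37 to 0.09.

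Levels of different genes were compared per kb of the longest annotated transcript. In vehicle pools the order of mean levels was Lamc1 (1799 ± 346, SD, n = 7), Lama1 (1729 ± 258), Lamb1 (1682 ± 258), Sparc (1333 ± 207), Col4a1 (1112 ± 222), Nid1 (939 ± 176), Col4a2 (586 ± 131), Lama5 (577 ± 65.5), Hspg2 (496 ± 171) and Nid2 (271 ± 53.5). The ranges of all neighbours in this order overlapped, and Lamc1 exceeded Lama1 in 4 of 7 pools. Sparc exceeded Col4a1, Nid1 exceeded Col4a2 and Hspg2 exceeded Nid2 in 7 of 7 pools. The 3 chains Lama1, Lamb1 and Lamc1 had means between 1682 and 1799 with these lengths. Lama5 was in place 8 in vehicle, in place 3 in Str let-7f (843 ± 297) and in place 2 in 2x Str let-7f (828.6 ± 269). Nid2 was in place 10 in all groups, at 66.6 ± 19.0 and 64.9 ± 13.2 in the mimic groups. With the median in place of the longest annotated transcript length, Col4a1 moved to place 1 in all groups, as 3 transcript models gave it a median length of 1.17 kb. In vehicle, Lamc1, Lamb1 and Lama1 then stood in places 2, 4 and 5. Lama5 stayed in place 8 in vehicle and was in place 5 in Str let-7f and place 4 in 2x Str let-7f.

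**Figure D4:**
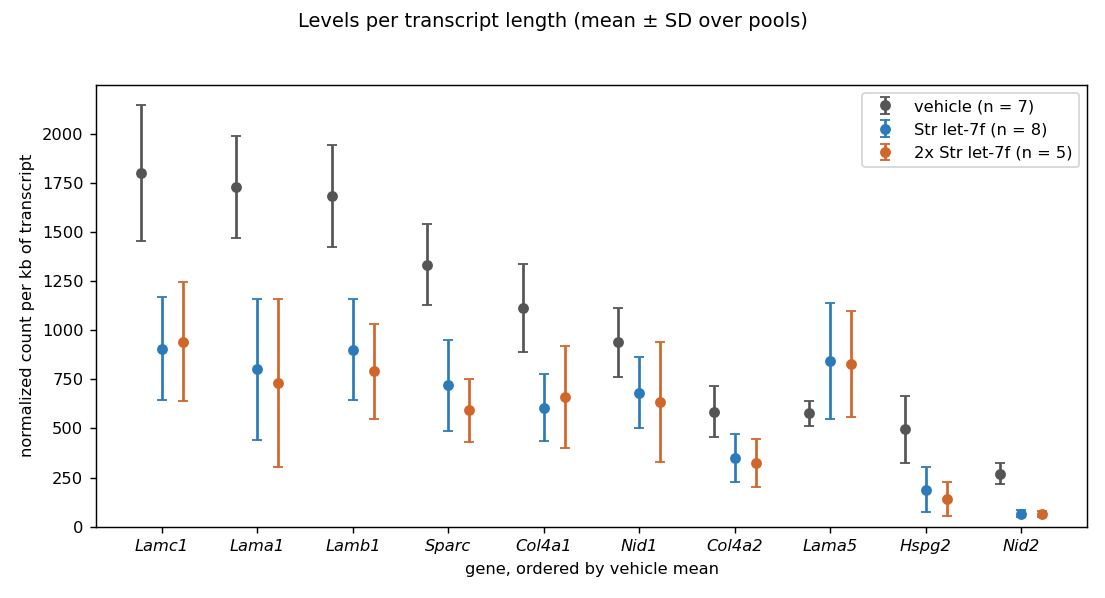
Normalized counts per kb of the longest annotated transcript (vertical axis, starting at 0) for the 10 genes in order of their vehicle mean; points are group means and bars are SD for vehicle (n = 7), Str let-7f (n = 8) and 2x Str let-7f (n = 5). The Lamc1, Lama1 and Lamb1 means lie between 1682 and 1799 in vehicle, and Lama5 is the only gene whose mimic means lie above its vehicle mean.

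Within groups, the 10 transcripts tended to be high or low in the same pools. Across the 20 libraries, as deviations from group means, the median Pearson r over the 45 pairs of genes was 0.53, from -0.09 for Col4a1 with Nid2 to 0.93 for Hspg2 with Lama1. All values of a pool share 1 library and its scaling, so these r are descriptions. Lama1 followed the mean of the other genes with r = 0.93, Nid1 with 0.89, Hspg2 with 0.88, Lamc1 with 0.85 and Sparc with 0.82. Lama5 (r = 0.31) and Nid2 (r = 0.27) followed it least. Nid2 had r = -0.52 with log2 depth and Col4a1 had r = 0.45, whereas the other 8 genes lay between -0.24 and 0.30. In 2x Str let-7f replicate 1, all 10 genes had the highest value of their group. Str let-7f replicate 2 was highest of its group for 7 genes, and Str let-7f replicate 9 lowest for 7 and highest for Lama5.

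The 10 other genes whose deviations across the same 20 libraries were most like the mean of the basement membrane genes had r from 0.87 to 0.92. They were Slc44a4 (0.92), Glipr2 (0.90), Spry4 (0.90), Slc1a4 (0.90), Foxq1 (0.89), Slc38a2 (0.89), Slc7a8 (0.89), Serpinh1 (0.88), Gpc4 (0.87) and Mycn (0.87). Among them are 4 solute carriers, the collagen chaperone gene Serpinh1, the glypican gene Gpc4, the ERK feedback inhibitor gene Spry4 and the transcription factor genes Foxq1 and Mycn. Other measures of likeness gave other orders. By Spearman's rho 6 of these genes stayed among the 10 most alike of all tested genes, and Slc44a4, Spry4, Foxq1 and Serpinh1 took places 16, 25, 26 and 51. Over the 15 libraries above 5 M reads 5 stayed, with Slc38a2 in place 1 and Slc44a4 in place 4. Slc44a4 had 839 ± 156 normalized counts in vehicle, 803 ± 201 in Str let-7f and, at the doubled dose, 840.4 ± 331, so its group means differed by less than the spread between pools. Glipr2 had 3016 ± 630.3, 1739 ± 602 and 1634 ± 622 in the same order, Foxq1 425 ± 87.0, 192 ± 77.5 and 138 ± 92.1, and Mycn 1418 ± 323, 754 ± 340.3 and 646 ± 379. For Foxq1, 7 of 8 and 5 of 5 mimic pools lay below every vehicle pool, for Glipr2 7 and 4, and for Mycn 5 and 4. These genes were picked by likeness, and their group differences were not carried through the alternatives.

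Other matrix genes, in 7 lists of the pathway, were taken with earlier results known, and 106 of their genes were tested. Of them, 2 were lower and 1 was higher in Str let-7f (adjusted p under 0.05, limma; 2.63% of all genes were called), and 2 were lower and 0 higher in 2x Str let-7f (1.89% of all genes). Both counts are near the share over all genes, with median log2 fold changes of -0.04 and -0.08. The lists differed. Of 23 collagen processing genes, Serpinh1 among them, 19 and 20 lay below 0 (medians -0.30 and -0.16). Over all genes, 7809 and 7637 of 15068 lay below 0. Summed over 24 collagen processing genes, the level was 1634 to 1830 reads per 1 M reads in vehicle. It was 1395 to 1625 in Str let-7f and 1360 to 1633 in 2x Str let-7f. The largest parts of this sum in vehicle were P4hb (61217 reads) and Serpinh1 (30789 reads). Log2 fold changes were -0.04 and -0.14 for P4hb, and -0.90 and -1.03 for Serpinh1. The receptor sum lay higher, with overlap, in Str let-7f (2430 to 2783) and 2x Str let-7f (2292 to 2728) than in vehicle (2053 to 2447). Among 8 other laminin and netrin genes, Lama3, which encodes the α3 chain found in epithelial laminins, rose from 90.1 ± 36.5 normalized counts in vehicle (SD, n = 7) to 244 ± 76.2 in Str let-7f (1.44 ± 0.30, limma adjusted p = 0.00902). In 2x Str let-7f Lama3 stood at 193 ± 68.6 (1.09 ± 0.34, adjusted p = 0.112), and 7 of 8 and 4 of 5 mimic pools lay above every vehicle pool. Without the libraries under 5 M reads the Str let-7f difference of Lama3 no longer passed (limma adjusted p = 0.0823). None of 4 other basement membrane collagens, 17 other basement membrane proteins, 20 receptors, 23 collagen processing genes and 15 dystroglycan glycosylation genes was called in either comparison.

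The genes closest to a call in those lists are given as values. Serpinh1, which encodes the chaperone of newly made collagen, stood at 2259 ± 356 in vehicle, 1289 ± 528 in Str let-7f and, at the doubled dose, 1229 ± 746 (-0.90 ± 0.25, limma adjusted p = 0.0582, and -1.03 ± 0.29, adjusted p = 0.0651). Pxdn, the peroxidase that crosslinks collagen IV, stood at 75.4 ± 48.6, 21.0 ± 14.3 and 52.6 ± 48.2 (limma adjusted p = 0.0628 and 0.703). Elastin, Eln, stood at 22.5 ± 20.7, 57.1 ± 24.8 and 48.6 ± 16.4 (limma adjusted p = 0.0702 and 0.197), and the proteoglycan gene Bgn at 19.0 ± 14.9, 5.16 ± 5.64 and 8.41 ± 8.75 (adjusted p = 0.292 and 0.627). Of the receptors, Itgb1, the β1 integrin chain, stood at 1422 ± 242, 1799 ± 261 and 1804 ± 318 (limma adjusted p = 0.158 and 0.274). Itga1, an α chain that binds collagen, stood at 319.8 ± 37.3, 231 ± 79.1 and 184 ± 79.9 (limma adjusted p = 0.293 and 0.0898). Col18a1 and Col17a1 had adjusted p of 0.522 and 0.611 in Str let-7f and 0.347 and 0.97 in 2x Str let-7f (limma), and Rxylt1, of dystroglycan glycosylation, 0.702 and 0.479.

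Of 19 matrix proteases and inhibitors, Ctsl, the lysosomal protease cathepsin L, fell in both mimic groups, from 2172 ± 235 normalized counts to 1444 ± 129 (-0.59 ± 0.14, limma adjusted p = 0.0263) and 1289 ± 455 (-0.82 ± 0.16, adjusted p = 0.00879), with 8 of 8 and 4 of 5 pools below every vehicle pool. The Str let-7f difference of Ctsl did not pass without vehicle replicate 2, 3 or 6 (highest limma adjusted p = 0.0629). The membrane protease gene Adam19 fell from 2744 ± 1069 to 817 ± 685 in Str let-7f (-1.94 ± 0.39, limma adjusted p = 0.00666) and stood at 1148 ± 1201 in 2x Str let-7f (adjusted p = 0.0673). Adamts9, a secreted proteoglycan-cleaving protease, fell from 276 ± 84.7 to 67.2 ± 60.2 in 2x Str let-7f (-2.33 ± 0.49, limma adjusted p = 0.0136) and stood at 121 ± 89.8 in Str let-7f (adjusted p = 0.0804). Neither call passed without the libraries under 5 M reads (limma adjusted p = 0.0592 for Adam19 and 0.198 for Adamts9). That these calls fell in 1 mimic group does not show a difference between the groups, for which limma adjusted p was 0.99974 in each case. Summed over 20 proteases and inhibitors, Ctsl and Adam19 among them, the level was 685 to 1025 reads per 1 M reads in vehicle. It was 494 to 640 in Str let-7f and 474 to 745 in 2x Str let-7f. Adam19 and Ctsl were the largest parts of this sum in vehicle (34349 and 28079 reads, with Adam10 next at 9576). Of the 19 tested genes, 10 and 13 lay below 0 (medians -0.09 and -0.15), beside 7809 and 7637 of 15068 over all genes.

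**Figure D5:**
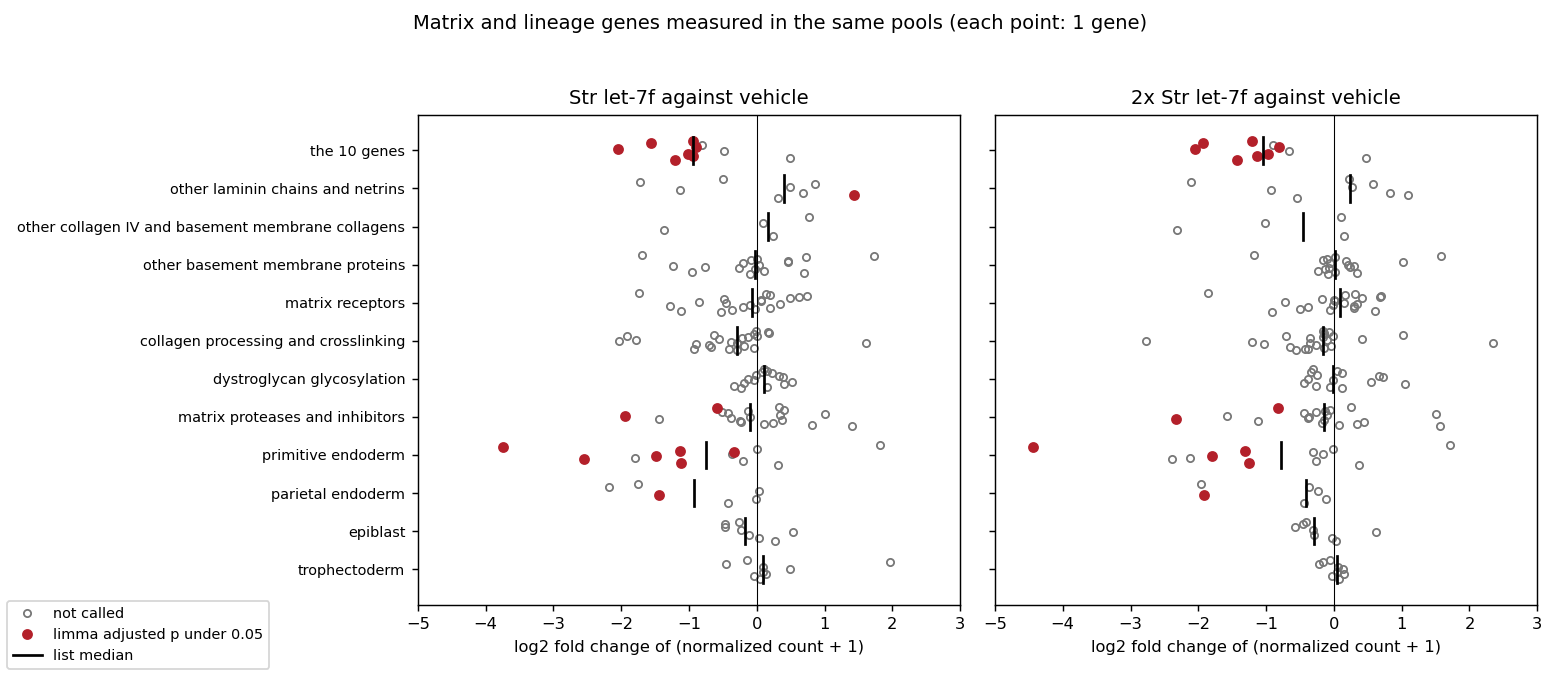
Log2 fold change of (normalized count + 1), horizontal axes, of every tested gene of each list for Str let-7f (left) and 2x Str let-7f (right) against vehicle; filled points have a limma adjusted p under 0.05 and black bars are list medians. The 10 basement membrane genes have medians of -0.94 and -1.05, and the other matrix lists have 3 filled points on the left and 2 on the right.

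Markers of the lineage that makes this matrix were taken from lists also chosen with earlier results known. Of 12 primitive endoderm markers tested, 6 were called lower and 0 higher in Str let-7f (among them Gata4, Sox7, Dab2, Cubn and Amn; limma adjusted p from 0.000241 for Cubn to 0.0493 for Dab2), and 4 lower and 0 higher in 2x Str let-7f (among them Gata4, Cubn and Amn; limma adjusted p from 0.000202 for Cubn to 0.0437 for Gata4). Over all genes, 0.796% and 0.664% were called lower. Cubn, the endocytic receptor cubilin, fell from 2689.9 ± 684 normalized counts (SD, n = 7) to 1218 ± 265 and 1075 ± 210, and the transcription factor gene Gata4 from 1079 ± 180 to 528 ± 192 and 503 ± 204. Sox7 stood at 288 ± 82.6, 78.1 ± 73.7 and 69.1 ± 56.1, and Dab2 at 7075 ± 1094, 5551 ± 639 and 5677 ± 447. Amn, the partner of cubilin, stood at 81.4 ± 56.7, 14.8 ± 26.7 and 4.64 ± 5.75 normalized counts. Unscaled for depth, it had 918 reads over 7 vehicle libraries, 157 reads in 5 of 8 Str let-7f libraries and 37 reads in 3 of 5 2x Str let-7f libraries.

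Other primitive endoderm markers, some of them more abundant, were not called. Gata6, which specifies the lineage, lay in the other direction and stood at 2512 ± 629, 3128 ± 811 and 3296 ± 1215 (limma adjusted p = 0.442 and 0.482), and Lrp2, the endocytic receptor megalin, at 27389 ± 8848, 26943 ± 5741 and 26393 ± 5594 (adjusted p = 0.991 and 0.982). Sox17 and Pdgfra were not called either (limma adjusted p = 0.647 and 0.314 in Str let-7f, and 0.66 and 0.807 in 2x Str let-7f). The summed level of all 12 markers, most of it Lrp2, ran from 3430 to 6144 reads per 1 M reads in vehicle, from 3156 to 4980 in Str let-7f and from 3159 to 4726 in 2x Str let-7f. Without the libraries under 5 M reads, 2 and 1 of the 12 were called lower, beside 201 and 68 of all genes in either direction. Cubn passed in all fits that left out 1 library. For Str let-7f, Dab2 did not pass in 10 of 15 such fits (highest limma adjusted p = 0.124), Gata4 in 7 (0.0736) and Amn in 1, that without vehicle replicate 2 (0.0538). For 2x Str let-7f, Gata4 did not pass in 10 of 12 (highest limma adjusted p = 0.135) and Amn in 3 (0.0623). Calls were also lost under other alternatives. In Str let-7f, Amn did not pass with edgeR, DESeq2 or the replicate number as a block, and Sox7 did not pass with edgeR. Dab2 did not pass with that block, without both libraries under 2 M reads or in some further settings. In 2x Str let-7f, neither Gata4 nor Amn passed with edgeR. Under all alternatives other than leaving out 1 library, Cubn in both comparisons and Gata4 in Str let-7f passed. In the fits that left out 1 library, Cubn passed throughout and Gata4 did not.

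Of 6 parietal endoderm markers, Pth1r, the parathyroid hormone receptor, was the only one called in each comparison. It fell from 374 ± 117 to 152 ± 74.6 (-1.44 ± 0.39, limma adjusted p = 0.046) and 110.3 ± 60.8 (-1.92 ± 0.44, adjusted p = 0.0221), and neither call passed without the libraries under 5 M reads (limma adjusted p = 0.152 and 0.16). The calls of Pth1r were also lost in 10 of 15 and 2 of 12 fits that left out 1 library (highest limma adjusted p = 0.102 and 0.0825). The summed level of the 6 ran from 66.1 to 99.4 reads per 1 M reads in vehicle, 32.0 to 68.0 in Str let-7f and 30.5 to 58.0 in 2x Str let-7f. Pth1r was the largest part of this sum in vehicle (4481 reads, with Plat next at 2076). In Str let-7f, log2 fold changes of the uncalled markers were -2.19 for Fst, -1.75 for Stra6, -0.42 for Plat, -0.01 for Thbd and 0.03 for Snai1. None of 8 epiblast and 9 trophectoderm markers was called in either comparison. With 2.63% and 1.89% of all genes called, 0 calls in lists this short show little. Those with the smallest p were Klf2 and Fgf4, and Hand1 and Eomes (limma adjusted p from 0.157 to 0.968). Among the few measured markers of granulosa cells, stroma and blood, 1 was called, the stromal gene Pdgfrb in Str let-7f (limma adjusted p = 0.0398), with 160 reads over 7 vehicle libraries and 31 reads in 4 of 8 Str let-7f libraries. This call was lost without both libraries under 2 M reads (limma adjusted p = 0.0688), without those under 5 M (0.24) and in 11 of 15 fits that left out 1 library (highest 0.098). The part of these marker differences in the levels of the basement membrane transcripts was not tested.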

How the data were processed

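RNA was sequenced from 20 pools of 10 blastocysts. The values are normalized counts per gene deposited by the authors, a signal that is never negative and is scaled between libraries. Per the submitters' processing notes, FastQC 0.12.1, MultiQC 1.28, Trimmomatic 0.39, kallisto 0.50.1 and, with the build GRCm39, DESeq2 1.48.2 were used; the annotation is not given in the sources used here. kallisto divides reads among similar transcripts. All values (100% in each library) were multiples of 1 read within a tolerance of 0.01, so reads and depths were recovered; 1 entry without a gene name (0.0286% to 0.0618% of reads) was left out. Depth sets the precision, and counts of amplified reads are not counts of molecules.

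Genes that reached 10 in 5 or more libraries were kept, and log2(value + 1) was fitted with limma 3.58.1 in R 4.3.3, with 1 mean per group over all 20 libraries, a trended prior and Benjamini-Hochberg adjustment (two-sided, threshold 0.05). Such fold changes understate changes of low genes. The step was tested on simulated data. edgeR 4.0.16 and DESeq2 1.42.0 on recovered reads, other pseudocounts, filters, scalings, weights, fewer libraries and the replicate number as a block were alternatives. Leaving out both libraries under 2 M reads was chosen after seeing the data. The 10 genes and all lists were chosen with earlier results of these data known. Genes named from a list were those past the threshold, up to 6, or otherwise the 2 with the smallest p. Some genes that this rule takes are not reported here. The 10 most alike genes were named, leaving out pseudogenes, clone names and predicted models. GENCODE M21 on GRCm38, a build other than the authors', gave transcript lengths, 3′ UTRs and chromosomes, matched by symbol for all 10 genes. Whether pools came from different females or injection days is not labelled; p-values therefore reflect only the spread from pool to pool.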

Additional observations from a re-analysis of the deposited data

Results flagged for a closer look

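In 3 measures, 1 pool stood farther from the rest of its group than the gap test allows, each time Str let-7f replicate 9, the shallowest library (1.54 M reads). Its Lama5 normalized count was 17125, with the next pool at 10349.7. Its log2 ratio of Lama1 to Lama5 was -2.25, with the next pool at -0.78. Its Nid2 share of both nidogens per kb was 14.6%, with the next pool at 10.1%. Chance alone marks about 1 in 20 groups, and of 60 groups examined 3 were marked, or 5%. The groups share pools and genes, and the same Lama5 count enters both the Lama5 measure and the ratio. This share therefore cannot show whether the marks are due to chance.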

How the results depend on the processing

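Against vehicle, no gene of the 10 changed direction under any setting or on leaving out any library. Counts of calls among the 10 are given as descriptions, since these differences chose the genes. The number called lower for Str let-7f was 6 to 8 over all settings and 7 to 8 on leaving out 1 library; for 2x Str let-7f it was 5 to 9 on leaving out 1 library and 3 without the 5 libraries under 5 M reads. Over all genes, DESeq2, array weights and leaving out libraries under 5 M reads gave 767, 617 and 201 calls for Str let-7f (397 otherwise; 282 to 459 on leaving out 1 library) and 620, 647 and 68 for 2x Str let-7f (285 otherwise; 144 to 330). Without both libraries under 2 M reads it was 185 for 2x Str let-7f. Between both concentrations, edgeR called 1 gene, DESeq2 10, and 0 to 1 on leaving out 1 library. Differences between both concentrations, all near 0 and none called, changed sign for Lama5 (0.15 without libraries under 5 M reads, 0.22 without those under 2 M) and Nid2 (0.021, 0.085, and 0.014 with array weights). On leaving out 1 library they ran from -0.50 to 0.086 for Lama1, -0.17 to 0.11 for Lama5, -0.12 to 0.15 for Lamc1, -0.098 to 0.086 for Nid2, -0.10 to 0.25 for Col4a1 and -0.26 to 0.068 for Col4a2. The cause of these shifts was not tested; the settings that leave out libraries have fewer samples. By Spearman's rho the likeness of Serpinh1 was 0.78.

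Replicate numbers gave no clear sign of pairing. In 0 of 14 same-numbered pairs was the correlation of deviations over 0.1 (-0.01 to 0.09, median 0.05). Of 16 libraries, 4 correlated best with their own number. These values were not set beside those of differently numbered pairs, so they cannot exclude pairing. With the replicate block, 6 of the 10 genes were called for Str let-7f and 8 for 2x Str let-7f. Over all genes it called 293 and 277, and the counts among the 10 remain descriptions. With the same block, the difference between both concentrations was 0.13 for Lama5, -0.060 for Lamc1, 0.063 for Nid2 and -0.00091 for Col4a1. Depth limits Nid2, Hspg2 and Sparc in the libraries under 2 M reads, where they had as few as 53, 161 and 156 reads.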
